A study of Sus scrofa with 6 samples.

Results

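The genes described here are those that the authors' deposited tables annotate with the pathway Glutamatergic synapse or GABAergic synapse. They number 108 of the 19465 genes listed: 53 carry the glutamatergic entry only, 28 the GABAergic entry only and 27 both entries. The rule used the annotation and no measured value. RNA was sequenced from intact hypothalamus, pituitary and ovary of Landrace x Large White sows that had had their first litter (primiparous sows). The estrous sows were in a normal estrus and the anestrous sows had, per the labels, inactive ovaries; no treatment or age is given for either state. Each state had 3 sows, and pooling of their RNA is not mentioned; the data hold 6 libraries, 1 for each tissue and state, so no difference between states has a replicate check. Each library held 15314325 to 17384789 gene reads.

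Glutamate is the main excitatory transmitter of the brain and GABA the main inhibitory one. Glutamate is loaded into vesicles by vesicular transporters, acts on ion channel receptors of the AMPA, kainate and NMDA kinds and on G protein-coupled metabotropic receptors, and is cleared by astrocytes and neurons. GABA is made from glutamate by glutamate decarboxylase, loaded by a transporter of its own, and acts on chloride channels (GABA-A receptors) and on a G protein-coupled receptor (GABA-B). Both transmitters act on the hypothalamic neurons that release gonadotropin-releasing hormone, and both inputs have long been studied in the control of the reproductive cycle. The genes with both entries are mostly the shared machinery behind the receptors: G protein subunits, adenylyl cyclases, protein kinase C, and the enzymes and carriers of the glutamine cycle. Much of that machinery serves other pathways as well. Of the 108 genes, 54 were also annotated with retrograde endocannabinoid signaling, 33 with the dopaminergic synapse, 29 with oxytocin signaling and 23 with gonadotropin-releasing hormone signaling.

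The deposited values, here called normalised read counts, are read counts after division by a library's size factor. A fold is the ratio of the 2 normalised read counts of a tissue, given with a 95% interval that covers counting error only. The log2 fold is that of anestrous over estrous with a pseudocount of 1. A gene was called 2-fold higher or lower, always anestrous relative to estrous, when its mean normalised read count in the tissue was at least 10 and its log2 fold at least 1 in size. A gene could pass this floor through its higher library alone, as GNG13 did in the hypothalamus. Counts of called genes are therefore set beside the same counts over all genes, except for some alternative settings at the end. The floor kept 101 of the 108 genes in the hypothalamus, 87 in the pituitary and 75 in the ovary. CACNA1S (mean 12.5), GABRR2 (13.4) and GNG13 (14.7) were just inside it in the hypothalamus, and GNB3 (7.46), GRM6 (5.95) and GRIN2A (4.49) just outside. In the pituitary GRIN2D (11.0) and GABRR2 (15.7) were just inside and PLA2G4E (7.58) and GNG8 (5.55) just outside. In the ovary GRIN2D and GRIN2C (11.2 each) were just inside and SLC17A8 (9.01) and GNG13 (7.73) just outside.

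Across tissues most of the synapse genes were highest in the hypothalamus. The scale for this is reads per 1000000 gene reads of the library (RPM), since each tissue was normalised separately. Most were not limited to the hypothalamus: 68 of the 108 were over the floor in all 3 tissues and 11 in the hypothalamus alone. For the genes highest in the hypothalamus, the median ratio of its mean RPM to that of the next tissue was 4.72. Of the 104 genes over the floor in at least 1 tissue, 69 had a higher RPM in both hypothalamus libraries than in every other library, 5 were highest in both pituitary libraries, 12 in both ovary libraries, and 18 in none of these. With the 10 genes with most reads left out of each library total, 9 rather than 5 were highest in the pituitary. Among all 14702 genes over the floor in a tissue, the same placed 30.1% in the hypothalamus, 9.53% in the pituitary and 28.3% in the ovary. All 108 genes together took 1.38% and 1.36% of the reads in the estrous and anestrous hypothalamus, 0.841% and 0.715% in pituitary, and 0.578% and 0.519% in ovary. GNAS and GLUL carried much of these shares. Without them the shares were 0.745% and 0.823% in hypothalamus, 0.295% and 0.278% in pituitary, and 0.379% and 0.349% in ovary, so that the anestrous share was then the larger one in the hypothalamus and the pituitary libraries lay below the ovary ones.

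Several genes that make and package the transmitters had many reads in the hypothalamus and few elsewhere. SLC32A1 encodes the vesicular GABA transporter that every GABA-releasing terminal needs; its hypothalamus libraries held 851 (estrous) and 1470 (anestrous) reads; the pituitary libraries held 2 and 0 reads and both ovary libraries 0. A count of 0 allows a level of up to 0.173 RPM in the anestrous pituitary library, and up to 0.194 and 0.183 RPM in the ovary libraries. GAD1, one of the decarboxylase genes that make GABA, had 3083 and 3935 reads in hypothalamus, 26 and 8 in pituitary and 2 in each ovary library. SLC17A6, the vesicular glutamate transporter typical of the diencephalon, had 1476 and 2131 reads in hypothalamus, 48 and 75 in pituitary, and 1 and 0 in ovary. For each of these genes, both hypothalamus libraries stood above all 4 others. The summed RPM of the 13 GABA-A subunit genes was 445 and 674 in hypothalamus, 54.8 and 51.1 in pituitary, and 8.33 and 6.14 in ovary. The 5 plasma membrane glutamate transporters summed to 620 and 650 RPM in the hypothalamus and to at most 20.8 RPM in any other library.

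**Figure D1:**
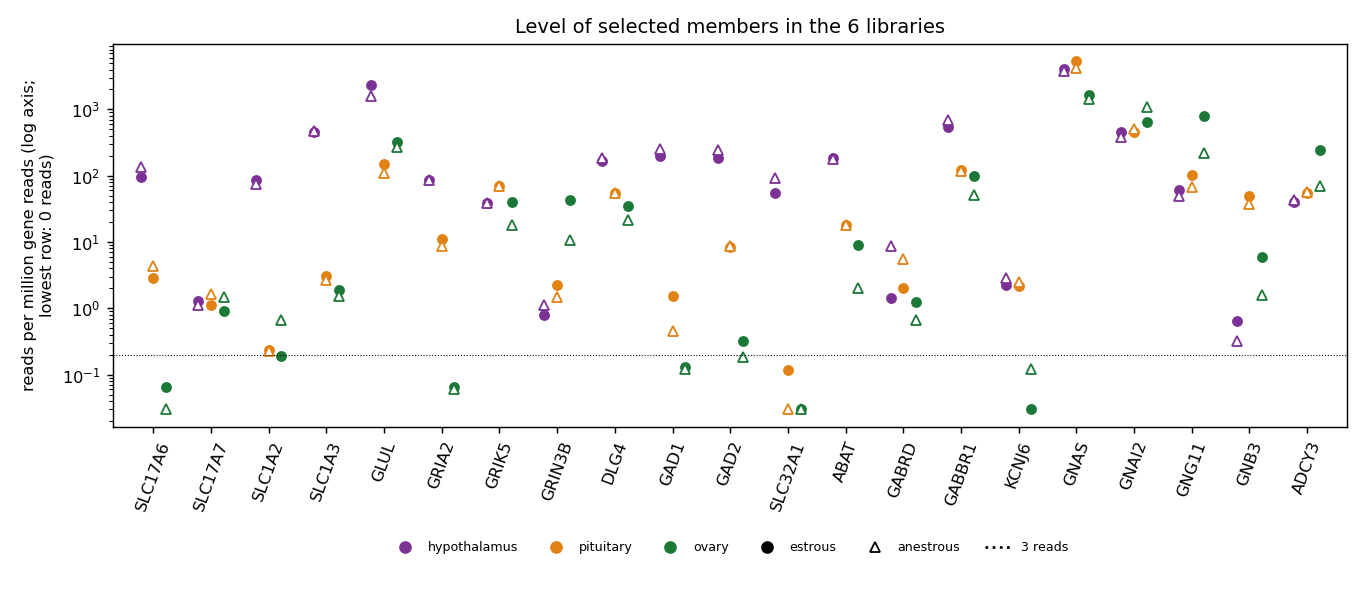
Level of selected genes (RPM, log axis) in the 6 libraries; colour marks the tissue, filled circles the estrous and open triangles the anestrous library, and the dotted line the RPM of 3 reads in the library with the fewest gene reads. The transmitter genes (SLC17A6, GAD1, GAD2, SLC32A1) sit far higher in the hypothalamus, whereas GRIN3B, GNG11 and ADCY3 are highest in the ovary libraries and GNB3 in the pituitary libraries; levels of different genes are not comparable, since they are not per length.

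Some genes of the 2 pathways were highest outside the brain. GRIN3B, an NMDA receptor subunit, had 12 and 18 reads in hypothalamus, 38 and 26 in pituitary, and 675 and 175 in ovary. GNG11, a G protein gamma subunit, reached 799 and 217 RPM in the ovary against 60.9 and 49.1 RPM in the hypothalamus. ADCY3, an adenylyl cyclase, reached 242 and 70.2 RPM in the ovary and at most 57.6 RPM elsewhere. GNB3, a G protein beta subunit, was highest in the pituitary, at 50.3 and 37.8 RPM, against 5.88 and 1.58 RPM in the ovary and under 1 RPM in the hypothalamus. GRIK5, a kainate receptor subunit, was also highest in the pituitary, with 69.1 and 70.4 RPM against 38.5 and 39.4 RPM in the hypothalamus. Only 4 genes were under the floor in all 3 tissues: GRIN2A, GABRA6, GABRP and PLA2G4D.

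In the hypothalamus, 5 of the 101 genes over the floor were at least 2-fold higher in anestrus and 1 was at least 2-fold lower, where 1.99% of all 13587 genes over the floor were higher and 2.61% lower. Small differences pointed mostly up: 72 of the 101 genes had a log2 fold above 0, against 49.8% of all genes, and their median log2 fold was 0.23, against -0.0016 for all genes. The GABAergic entry only gave 20 of 26 genes above 0 with a median of 0.39, the glutamatergic entry only 35 of 49 with a median of 0.25, and both entries 17 of 26 with a median of 0.06. None of the genes with the glutamatergic entry only was 2-fold different; 3 of the 6 that were carry the GABAergic entry only and 3 carry both. With the 2 libraries scaled to equal totals of gene reads, which moved every log2 fold by -0.09, 62 of 101 stood above 0 against 37.2% of all genes, and the median of the genes with both entries became -0.03. An adjusted p at or below 0.05 in the authors' deposited table, which compares 2 libraries, was listed for 4 of the 101 genes and for 0.868% of all genes over the floor.

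**Figure D2:**
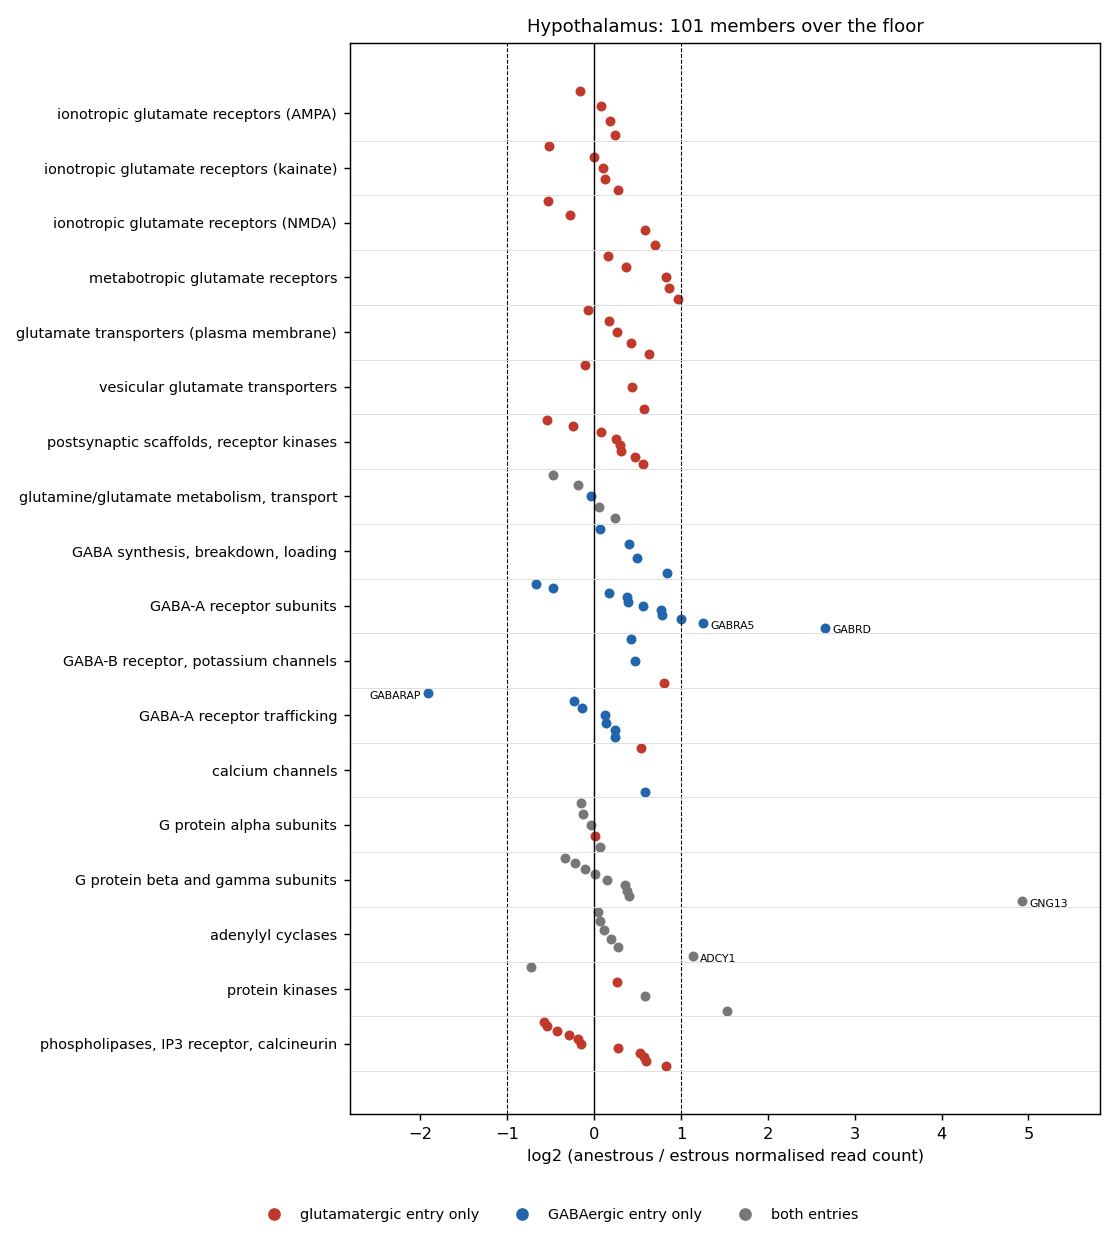
Log2 fold (anestrous over estrous normalised read count, pseudocount 1) of the 101 genes over the floor in the hypothalamus, 1 point per gene, by role and coloured by pathway entry; dashed lines mark 2-fold, and genes past it that the text describes are named. Most points lie between the dashed lines and to the right of 0, and GABRD, GABRA5, ADCY1 and GNG13 lie past 2-fold on the higher side; the point of GNG13 depends on the pseudocount, since its estrous library held 0 reads.

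The genes that make and load GABA were all higher in the anestrous hypothalamus library, by less than 2-fold. GAD1 (3083 and 3935 reads) was 1.32-fold higher (95% interval 1.26 to 1.38). GAD2, the decarboxylase gene associated with nerve terminals, gave 2794 and 3825 reads and was 1.41-fold higher (1.35 to 1.48). SLC32A1 was 1.78-fold higher (1.64 to 1.94). ABAT encodes the transaminase that breaks GABA down; its 2795 and 2827 reads gave a ratio of 1.04 whose interval (0.990 to 1.10) included 1.

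GABA-A receptors are channels of 5 subunits, and which subunits a neuron uses sets where the receptor sits and how it responds. GABRD encodes the delta subunit, found in receptors outside the synapse that carry a steady inhibitory current and are sensitive to neurosteroids. It gave 22 reads in the estrous library and 140 in the anestrous one, 6.57-fold higher (4.17 to 10.8), with an adjusted p of 0.00135 in the authors' deposited table. GABRA5 encodes an alpha subunit also known from receptors outside the synapse; it gave 928 and 2142 reads and was 2.38-fold higher (2.20 to 2.58; the authors' adjusted p was 0.00261 in their deposited table). GABRA4, the alpha subunit that often joins delta, gave 1275 and 2470 reads, a log2 fold of 0.999, just under the threshold (95% interval of the ratio 1.87 to 2.14). So the anestrous library was the higher one for all 3 genes, and the interval left out 1 in each. GABRA2 (639 and 1063 reads, 1.72-fold) and GABRB2 (51 and 85 reads, 1.72-fold) were higher by less. Of the 11 subunit genes over the floor, GABRE (702 and 490 reads, 1.39-fold) was lower with an interval that left out 1, and GABRR2 (17 and 10 reads) was lower with an interval that included it. The subunit genes GABRA3 and GABRB1 had no synapse entry in the tables, and they gave 171 and 170 reads and 181 and 168 reads.

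GABBR1 encodes the ligand-binding subunit of the GABA-B receptor and gave 8433 and 10975 reads, 1.34-fold higher (1.31 to 1.38). Its partner GABBR2, which couples the receptor to G proteins and is not annotated with either entry, gave 1948 and 4370 reads and was 2.32-fold higher (2.19 to 2.44). KCNJ3, a potassium channel subunit opened through such receptors and annotated with the glutamatergic entry only, gave 460 and 781 reads and was 1.75-fold higher (1.56 to 1.97). KCNJ6, another such subunit, gave 34 and 46 reads, with an interval that included 1. Among the genes that move and anchor GABA-A receptors, GABARAP, which encodes a receptor-associated protein of the autophagy family, was the only gene of the 101 at least 2-fold lower: 65 reads in estrus and 16 in anestrus, 3.94-fold (2.25 to 7.29). GABARAPL2, its relative, gave 4334 and 4614 reads, and GABARAPL1, which has no synapse entry, 4601 and 4534. How reads were shared among these related genes is not given in the sources used here. GPHN, which encodes the anchoring protein gephyrin, gave 995 and 1137 reads and was 1.18-fold higher (1.08 to 1.29).

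On the glutamate side, SLC17A6 was 1.49-fold higher (1.39 to 1.59) in the anestrous hypothalamus library, while SLC17A7, the cortical form, gave 20 and 18 reads. The ion channel receptors stood close to even. The 4 AMPA receptor genes ran from 1.12-fold lower (GRIA1, 1173 and 1017 reads) to 1.18-fold higher (GRIA4, 1024 and 1172), and GRIA2, the subunit that keeps calcium out, gave 1326 and 1355 reads. Of 5 kainate receptor genes, GRIK3 was 1.44-fold lower (251 and 169 reads; 1.18 to 1.76), and the intervals of the other 4 included 1. The NMDA subunit genes split: GRIN2D was 1.62-fold higher (210 and 330 reads; 1.36 to 1.94) and GRIN3A 1.45-fold lower (205 and 137 reads; 1.16 to 1.81). The metabotropic receptors pointed up, with 5 of 5 log2 folds above 0. GRM4 and GRM8, which lower cyclic AMP at nerve terminals, gave 336 and 594 and 168 and 289 reads and were 1.82-fold and 1.78-fold higher.

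The astrocyte side of the glutamate cycle did not share this direction throughout. GLUL encodes glutamine synthetase, the astrocyte enzyme that turns glutamate into glutamine; it gave 35694 reads in estrus and 24904 in anestrus, 1.39-fold lower (1.37 to 1.41). SLC1A2, the main astrocyte glutamate transporter, gave 1308 and 1205 reads with an interval that included 1. SLC1A3, the other astrocyte transporter, gave 6878 and 7482 reads and was 1.12-fold higher (1.09 to 1.16). Among the postsynaptic scaffolds, DLG4 (PSD-95) gave 2534 and 2914 reads and was 1.19-fold higher, DLGAP1, which binds it, gave 706 and 1013 reads and was 1.48-fold higher, and HOMER3, which links metabotropic receptors to calcium stores, gave 1462 and 972 reads and was 1.46-fold lower.

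Among the genes with both entries, PRKCA, the widely expressed alpha form of protein kinase C, gave 530 and 310 reads (1.66-fold lower; 1.44 to 1.91), and PRKCB, the beta form, gave 268 and 389 reads (higher; interval of the ratio 1.28 to 1.76). ADCY1, a neuronal adenylyl cyclase stimulated by calcium, gave 190 and 406 reads and was 2.21-fold higher (1.85 to 2.63); the authors' adjusted p was 0.167 in their deposited table. GNG13, a G protein gamma subunit, had 0 reads in estrus and 29 in anestrus, at least 9.98-fold higher against a floor of 3 reads, while the lower 95% counting limit of its ratio was 7.61. Of the G protein genes with many reads, GNAO1 gave 1783 and 1805 reads with an interval that included 1, GNB5, a beta subunit, was 1.28-fold higher (2753 and 3420 reads; 1.22 to 1.35), and GNG10, a gamma subunit, was 1.26-fold lower (1629 and 1248 reads; 1.17 to 1.36). GNAS, which carries the glutamatergic entry only, gave 61363 and 59671 reads, and its interval included 1.

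Other genes differed in these 2 libraries beside the annotated ones. Of 27 further genes over the floor that belong to the same receptor, transporter and signalling families but carry neither entry, 1 (GABBR2) was 2-fold higher and 0 were 2-fold lower, and 22 had a log2 fold above 0. Among them SLC12A5, the chloride carrier that keeps GABA inhibitory, gave 2449 and 3688 reads. All 11 genes of the vesicle release machinery, none of them annotated with either synapse entry, had a log2 fold above 0, with a median of 0.53 and none 2-fold different. Receptor auxiliary subunits (6 of 6 above 0, median 0.47) and glycine synapse genes (4 of 4, median 0.43) also pointed up, and 8 of 10 adhesion and other scaffold genes did (median 0.11), of which LRRTM1 (295 and 829 reads) was 2-fold higher. Of 8 general neuron markers 7 were above 0, with a median of 0.40 and a summed level of 8129 RPM in estrus and 9480 RPM in anestrus, and none was at 0 reads. SYT1 and SNAP25 are in this list and in the vesicle release list as well. Myelin markers were below 0 in 5 of 5 (median -0.34, 18933 and 13853 RPM), and astrocyte markers had a median of -0.09 (19631 and 14402 RPM). Markers of the thalamus, the neighbouring brain region, were above 0 in 10 of 11, 6 of them 2-fold higher, with a median of 1.42 and a summed level of 220 and 513 RPM. Choroid plexus and ependyma markers had a median of -0.99, at 199 and 86.4 RPM. All 8 markers that define the hypothalamus had reads in both libraries, and they went both ways: 2 were 2-fold higher and 2 were 2-fold lower, with a median of -0.13 and a summed level of 1620 RPM in estrus and 915 RPM in anestrus. More neurons in the sampled piece and more RNA of these genes per neuron cannot be told apart in bulk tissue, and the part that neighbouring tissue took in the synapse genes' values was not tested.

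**Figure D3:**
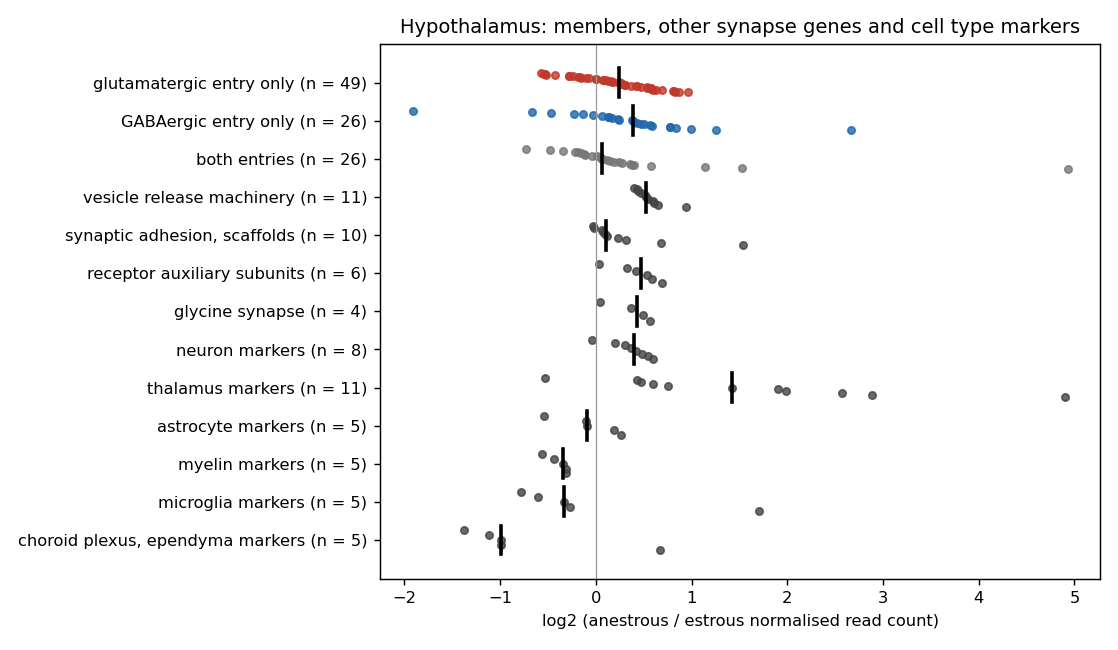
Log2 fold in the hypothalamus (x axis) of the synapse genes by pathway entry, of other synapse genes and of cell type markers, 1 point per gene over the floor, with the median of each list as a black bar. The medians of the vesicle release genes (0.53) and neuron markers (0.40) lie at or above those of the 3 groups of synapse genes, the thalamus markers lie highest, and the myelin, microglia and choroid plexus medians lie below 0. The vesicle release and neuron lists share SYT1 and SNAP25.

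In the pituitary, 3 of the 87 genes over the floor were 2-fold higher in anestrus and 8 were 2-fold lower, where 2.27% of all 13144 genes were higher and 4.23% lower. The log2 fold was above 0 for 37 and below 0 for 50, with a median of -0.08 against -0.0025 for all genes, of which 49.7% were above 0. The medians were -0.11 for the 41 genes with the glutamatergic entry only, 0.09 for the 20 with the GABAergic entry only and -0.10 for the 26 with both. Scaling to equal totals moved every log2 fold by -0.11, after which 28 of 87 stood above 0 against 36.1% of all genes, and the median of the GABAergic entry only became -0.03.

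HOMER1 was the gene with the lowest ratio in the pituitary. It encodes a scaffold that ties metabotropic glutamate receptors to calcium stores, and its short form is made in response to activity. It gave 366 reads in estrus and 66 in anestrus, 5.23-fold lower (4.02 to 6.91), and its adjusted p of 0.000163 was the only one of the 87 at or below 0.05 in the authors' deposited table, against 0.761% of all genes over the floor. HOMER2 (130 and 115 reads) and HOMER3 (131 and 101) had intervals that included 1. DLGAP1, the scaffold that binds DLG4, went the other way with 46 and 104 reads, 2.40-fold higher (1.68 to 3.47). DLG4 itself gave 933 and 960 reads, with an interval that included 1. SLC38A1, a carrier that brings glutamine into neurons, gave 158 reads in estrus and 52 in anestrus, 2.87-fold fewer after scaling. GLUL (2535 and 1918 reads, 1.25-fold) was lower by less.

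GABA-A subunit genes of the pituitary pointed both ways. GABRD gave 34 and 95 reads and was 2.96-fold higher (1.98 to 4.52), the same direction as in the hypothalamus. GABRR2, the gene the tables name as a rho subunit, gave 9 and 22 reads and was 2.59-fold higher (1.15 to 6.39); a second name source gives this gene as GABRR1. GABRA2 gave 32 and 14 reads, 2.16-fold lower (1.12 to 4.37), but with a pseudocount of 5 its log2 fold of -1.06 became -0.89, short of the threshold. Of the GABA-making genes, GAD1 had 26 reads in estrus and 8 in anestrus (3.07-fold lower, 1.35 to 7.84), while GAD2 gave 141 and 150. GABBR1 (2071 and 2016 reads) and KCNJ6 (37 and 43) had intervals that included 1. GPHN (497 and 698 reads, 1.49-fold) and HAP1, which carries receptors along microtubules (617 and 846 reads, 1.45-fold), were higher, and GABARAP gave 80 and 34 reads, 2.22-fold lower (1.47 to 3.42).

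The remaining called genes of the pituitary were few in reads. GRM8, the metabotropic receptor, gave 60 and 17 reads, 3.33-fold lower (1.92 to 6.09). ADCY1 gave 35 and 8 reads, 4.13-fold lower (1.88 to 10.3). PLCB2, a phospholipase C form best known from blood cells, gave 69 and 29 reads, 2.25-fold lower (1.44 to 3.59). Genes with many reads differed by less: GNAS, the stimulatory G protein through which several releasing hormones act on pituitary cells, gave 90323 and 74009 reads, 1.15-fold lower, and ADCY5, an adenylyl cyclase, gave 931 and 1392 reads, 1.58-fold higher. PRKCB (46 and 84 reads, 1.94-fold) was higher without reaching 2-fold. Of 21 genes of the same families without either entry, 0 were 2-fold higher and 1 was 2-fold lower, the GABA transporter gene SLC6A13 with 95 and 33 reads. Other synapse genes went both ways. Above 0 were 8 of 11 vesicle release genes (median 0.07) and 6 of 9 adhesion and scaffold genes (median 0.31). In each of these lists 1 gene was 2-fold higher and 0 were 2-fold lower. Receptor auxiliary subunits (1 of 4 above 0, median -0.50) and glycine synapse genes (1 of 3, median -0.26) pointed down. Neuron markers, which endocrine cells of the pituitary also express in part, had a median log2 fold of -0.21, with 2 of 8 above 0. Their summed level was 1902 and 1420 RPM, and NEFM (6143 and 2436 reads) was the only one 2-fold lower. Endocrine markers took 248811 and 259550 RPM in sum but went both ways. Of 7, 4 were above 0 and 3 below 0, and every interval left out 1. Among them 1 was 2-fold higher (log2 fold 2.02) and 1 was 2-fold lower (-1.21). The part of these cells in the synapse genes' values was not tested.

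In the ovary, 12 of the 75 genes over the floor were 2-fold higher in anestrus and 17 were 2-fold lower, where 13.6% of all 13193 genes were higher and 10.7% lower. The log2 fold was above 0 for 31 and below 0 for 44, with a median of -0.09; 50.4% of all genes were above 0. The genes with the GABAergic entry only had a median of -0.32 (14 genes), those with the glutamatergic entry only -0.17 (38 genes) and those with both -0.01 (23 genes). Scaling to equal totals moved every log2 fold by -0.20. Of the 75 genes, 7 were then 2-fold higher and 19 were 2-fold lower. Over all genes 1387 were then higher, in place of 1795, and 1891 lower, in place of 1418. Above 0 stood 24 of 75 against 38.9% of all genes.

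**Figure D4:**
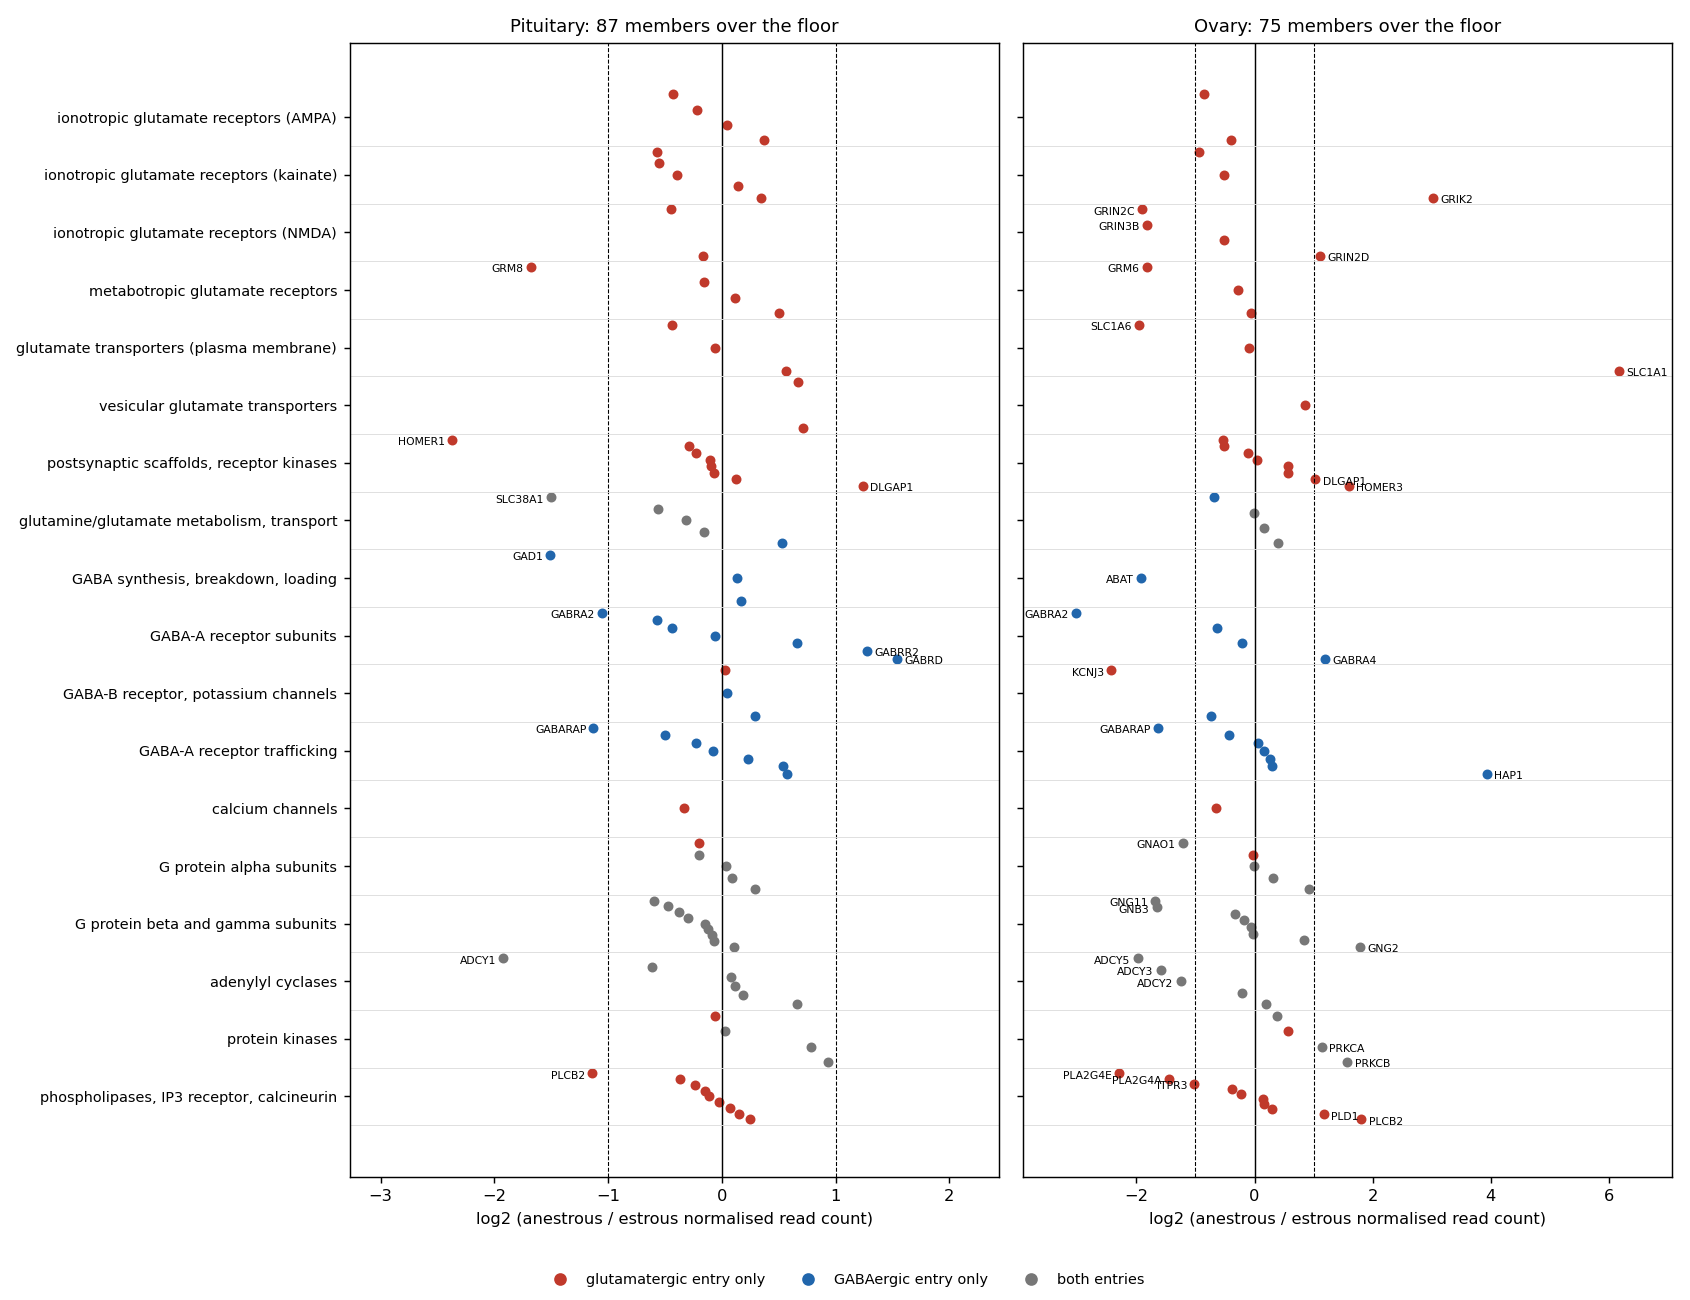
Log2 fold (anestrous over estrous normalised read count, pseudocount 1) of the genes over the floor in the pituitary (87) and ovary (75), by role and coloured by pathway entry; dashed lines mark 2-fold, and genes past it are named. The x axes differ: the ovary runs from GABRA2 at -3.02 to SLC1A1 at 6.18, the pituitary from HOMER1 at -2.37 to GABRD at 1.54.

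SLC1A1, which encodes a glutamate transporter that also carries aspartate and cysteine and is found in many tissues besides neurons, had 2 reads in the estrous ovary and 202 in the anestrous one. This was 109-fold higher (29.9 to 910), and its adjusted p of 0.00129 was the only one of the 75 at or below 0.05 in the authors' deposited table, against 0.819% of all genes over the floor. SLC1A6, another transporter of the family, gave 100 and 23 reads, 4.01-fold lower (2.53 to 6.62), and SLC1A3 gave 29 and 25. In the hypothalamus and pituitary SLC1A1 had 896 and 1043 reads, and 284 and 198 reads, so the estrous ovary was the library in which it was nearly not detected. GRIK2, a kainate receptor subunit, gave 6 and 52 reads and was 9.39-fold higher (4.04 to 26.8). GRIK5 went the other way with 621 and 298 reads, 1.92-fold lower (1.67 to 2.22), which passed 2-fold with equal totals (log2 fold -1.14). GRIA3, the AMPA receptor gene with most reads in the ovary, gave 753 and 383 reads, 1.81-fold lower (1.60 to 2.06), and passed 2-fold in the same way (-1.06).

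The NMDA subunit gene GRIN3B gave 675 reads in the estrous and 175 in the anestrous ovary, 3.56-fold lower (3.01 to 4.23). GRIN2C gave 19 and 4 reads and was also lower, and GRIN2D, with 7 and 15 reads, was called higher although its interval (0.891 to 6.73) included 1. GRM6, the metabotropic receptor known from the retina, gave 106 and 27 reads, 3.62-fold lower (2.36 to 5.75). Among scaffolds, HOMER3 gave 573 and 1609 reads and was 3.04-fold higher (2.77 to 3.35). DLGAP1 gave 228 and 431 reads and was 2.05-fold higher (1.74 to 2.42), but with equal totals its log2 fold of 1.03 became 0.83. DLG4, at 545 and 349 reads, was 1.44-fold lower (1.26 to 1.65).

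Among GABA enzymes, receptors and their channels in the ovary, ABAT, the GABA-degrading transaminase, gave 139 and 33 reads, 3.89-fold lower (2.64 to 5.87). GABBR1 gave 1514 and 834 reads, 1.68-fold lower (1.54 to 1.82). KCNJ3, the receptor-gated potassium channel gene with the glutamatergic entry only, had 127 reads in estrus and 21 in anestrus (5.58-fold lower, 3.50 to 9.33). GABARAP, with 204 and 60 reads, was 3.14-fold lower (2.34 to 4.26), and GABRA2, with 25 and 2 reads, 11.5-fold lower (2.88 to 100.5). In all of these the estrous library was the higher one. The reverse held for GABRA4 (25 and 54 reads, 2.34-fold higher) and for HAP1, which gave 5 and 84 reads and was 18.2-fold higher (7.50 to 57.5). GABRD, higher in the other 2 tissues, gave 19 and 11 reads in the ovary, and its interval included 1.

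Some signalling genes of the ovary had many reads and so narrow counting intervals, which hold no error between sows. GNG11 gave 12376 reads in estrus and 3564 in anestrus, 3.20-fold lower (3.09 to 3.33), whereas GNG2, another gamma subunit, gave 690 and 2200 and was 3.46-fold higher (3.17 to 3.77). GNAI2, an inhibitory G protein alpha subunit, had 10118 and 17667 reads, 1.89-fold higher (1.85 to 1.94), and GNB3, with 91 and 26 reads, was 3.23-fold lower (2.07 to 5.20). Of 5 adenylyl cyclases over the floor, 3 were 2-fold lower: ADCY3 with 3752 and 1154 reads (3.00-fold), ADCY5 with 612 and 143 (3.95-fold) and ADCY2 with 382 and 148 (2.38-fold). ADCY4, which gave 430 and 452 reads, had an interval that included 1. All 4 kinase genes had a log2 fold above 0, and PRKCB (50 and 139 reads, 3.01-fold) and PRKCA (23 and 48 reads, 2.26-fold) were 2-fold higher. Among the phospholipases, PLCB2 gave 412 and 1334 reads and was 3.51-fold higher (3.14 to 3.93), and PLD1 gave 364 and 757 and was 2.25-fold higher (1.99 to 2.56). PLA2G4A, which releases arachidonic acid for prostaglandins, gave 737 and 249 reads, 2.73-fold lower (2.36 to 3.17). PLA2G4E (206 and 38 reads, log2 fold -2.29) and ITPR3, a calcium store channel (690 and 314 reads, 2.03-fold), were lower too.

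Markers of other cells moved in the ovary libraries as well. Of the 8 markers that define the ovary 7 were 2-fold lower, with a summed level of 10585 RPM in estrus and 1280 RPM in anestrus, and none was at 0 reads. Of 6 genes of the microglia list, which macrophages share, 4 had a log2 fold above 0 and 2 below 0. CSF1R (176 and 2439 reads), CX3CR1 (172 and 1091) and AIF1 (483 and 2142) were 2-fold higher. Of the 2 below 0, 1 had an interval that left out 1. The list as a whole went from 394 to 605 RPM. Of 8 neuron markers 5 had a log2 fold above 0, and 4 were 2-fold higher, among them TUBB3 with 21 and 957 reads. The 3 below 0 had intervals that included 1, and the list went from 89.7 to 185 RPM. The part of these cells in the synapse genes' values was not tested. Of 19 genes of the same families without either entry, 3 were 2-fold higher and 3 were 2-fold lower. Among other synapse genes, 5 of 8 adhesion and scaffold genes over the floor were 2-fold lower and 1 higher (median -1.27), 2 of 9 vesicle release genes were higher and 2 lower (median -0.12), and no glycine synapse gene passed the floor.

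Of the 91 genes over the floor in 2 or more tissues, 6 were 2-fold different in 2 or more, where 3.8% of all 13325 such genes were. GABARAP was 2-fold lower in all 3, at 3.94-fold, 2.22-fold and 3.14-fold in hypothalamus, pituitary and ovary. Over all genes, 60 were 2-fold different in all 3 tissues, 37 of them the same way in each. GABRD was higher in hypothalamus and pituitary, DLGAP1 higher in pituitary and ovary, and GABRA2 lower in pituitary and ovary. ADCY1 was higher in the hypothalamus and lower in the pituitary, and PLCB2 was lower in the pituitary and higher in the ovary. The cumulative plots show how each pathway entry compares with all genes over the whole range.

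**Figure D5:**
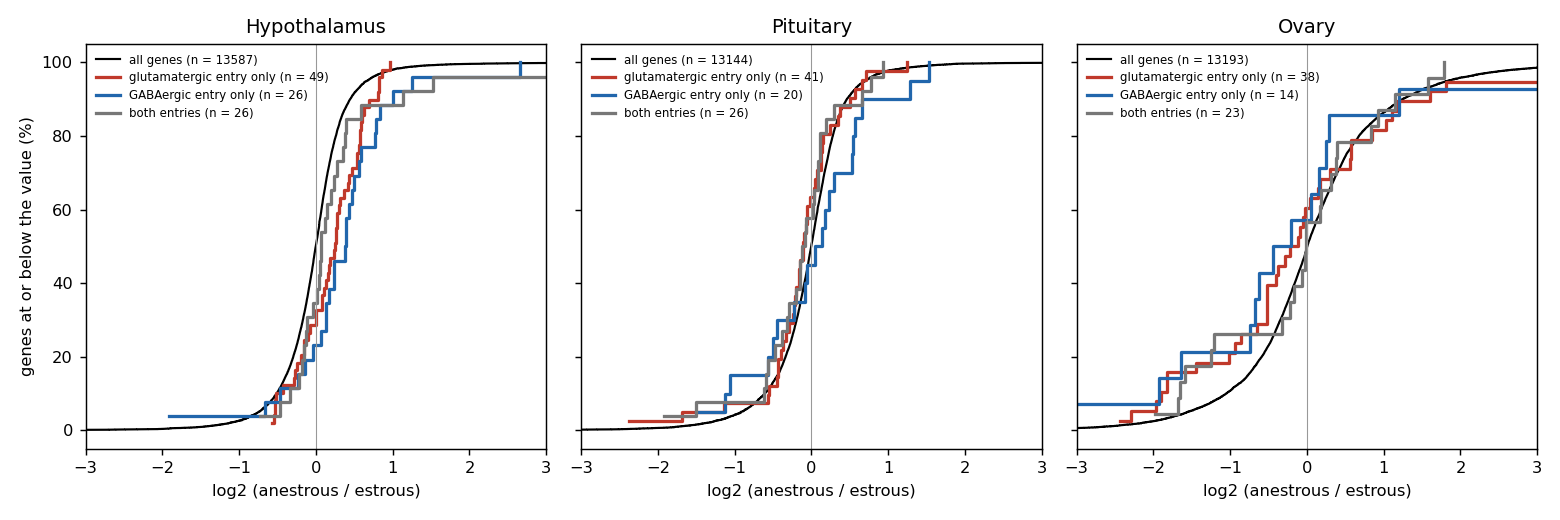
Cumulative share of genes (y axis, percent) at or below each log2 fold (x axis, drawn from -3 to 3) in the 3 tissues, for all genes over the floor (black) and for the synapse genes by pathway entry. In the hypothalamus the curves of the glutamatergic entry only (median 0.25) and the GABAergic entry only (median 0.39) lie to the right of all genes near the middle, and in the pituitary and ovary no such shift to the right is seen for the glutamatergic entry only (medians -0.11 and -0.17).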

How the data were processed

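Per the labels, Trizol was used for RNA and a TruSeq kit for the libraries, which were read on an Illumina HiSeq instrument; TopHat2 2.1.0 is listed per the submitters' processing notes. The counter, genome build, annotation release and use of strand are not given in the sources used here. Overlapping genes and near-identical copies are therefore uncertain. The authors deposited 1 table per tissue of normalised signal (read counts divided by a size factor, DESeq being named per the labels), with their p-value and adjusted p-value. Whole reads were recovered from each column: 100% of values above 0 came within 0.01 of a whole read. Names came from the tables; 92 of the 108 genes were in an Ensembl name table, and 4 had another name there (ADRBK1 as GRK2, ADRBK2 as GRK3, GNB2 as GNB1, GABRR2 as GABRR1). Transporter, receptor and other genes without either entry (28 symbols, such as GABBR2) were kept apart from the counts.

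With 1 library against 1, no test between states was made within a tissue. Where the labels do not say that libraries came from separate or pooled sows, their spread is unknown. Intervals are exact conditional binomial (Clopper-Pearson) limits on the recovered reads and, like the floor of 3 reads for a count of 0, cover counting error only. Amplified reads lack molecular identifiers and cannot be counted as separate molecules, so the intervals may be too narrow even for the error of counting molecules. Named genes were fixed core genes with a mean of at least 10, up to 15 members per tissue with a mean of at least 50 and a 2-fold difference, the highest and lowest of each role with that mean, and members 2-fold different in 2 or more tissues; others were chosen after their values were seen. The members and lists were chosen with earlier results of these data known. Of marker lists not described above, astrocyte markers had 4 of 5 log2 folds below 0 in the pituitary and thalamus markers 4 of 8. Markers that define the hypothalamus were below 0 there in 3 of 4, 1 of them 2-fold lower (49.4 and 28.5 RPM). In the hypothalamus, pituitary endocrine markers were below 0 in 3 of 5, 1 of them 2-fold lower (459 and 200 RPM). Microglia markers of the hypothalamus were below 0 in 4 of 5, and 1 was 2-fold higher. Not every list is described for every tissue. Alternatives changed the scaling (equal totals; trimmed mean of log ratios), the pseudocount and the floor, and added the counting interval, the authors' p or an edgeR 4.0.16 quasi-likelihood test in R 4.3.3 (tissue as block). The call was run on simulated reads with counting error only, with changes larger than 2-fold in genes with a mean of at least 50. Those reads held no spread between sows, so the run cannot show how the call fares with it. Tables were made with pandas 2.3.3 and scipy 1.17.1. Some genes that the rule names are not reported here.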

Additional observations from a re-analysis of the deposited data

Results flagged for a closer look

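Both of these genes were 2-fold different in opposite directions in 2 tissues, with 1 library per state and tissue, so the difference between tissues was not tested. ADCY1, the calcium-stimulated adenylyl cyclase, had a log2 fold of 1.14 in the hypothalamus (190 and 406 reads) and -1.92 in the pituitary (35 and 8 reads), a difference of 3.06. PLCB2, the phospholipase C form, had a log2 fold of -1.14 in the pituitary (69 and 29 reads) and 1.81 in the ovary (412 and 1334 reads), a difference of -2.95.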

How the results depend on the processing

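No paired analysis was possible because no tissue has more than 1 library per state; only the edgeR test below, across tissues, has a block, the tissue. The count of genes 2-fold lower in the hypothalamus (1) was 2 with no floor and 0 with a floor of 50, a floor of 200 or the authors' adjusted p; the count higher (5) was 3 with a floor of 200. In the pituitary the count lower (8) was 3 with a floor of 50, 1 with a floor of 200 and 1 with the authors' p, and the count higher (3) was 0 with a floor of 200 and 0 with the authors' p. In the ovary the count higher (12) was 7 with equal totals, 7 with a floor of 50, 5 with a floor of 200 and 1 with the authors' p. The count lower (17) was 27 with no floor, 7 with a floor of 200 and 0 with the authors' p. With equal totals the ovary count over all genes went from 1795 to 1387 higher and from 1418 to 1891 lower. Counts over all genes were not made for the other floors and the authors' p, so those changes say nothing particular to the members. With the edgeR quasi-likelihood test over the 3 tissues all 6 counts were 0: of 15584 genes, 0 reached an adjusted p of 0.05 and 602 an unadjusted one, 6 of them among the 106 members tested (among them GABARAP, DLGAP1, GRM6, PRKCB and GNB3); the test takes the tissues for replicates, although they are different organs. With equal totals the median log2 fold became -0.19 in the pituitary and -0.29 in the ovary, and with no floor -0.29 in the ovary. With a floor of 200 the median of genes with both entries in the pituitary turned from -0.10 to 0.04, and that of the glutamatergic entry only in the ovary from -0.17 to 0.07; the cause was not tested, and fewer genes entered. Without the 10 genes with most reads, 9 members rather than 5 were highest in the pituitary. Of 125 pairs of named gene and tissue, 121 kept their call under equal totals, the trimmed mean and a pseudocount of 5. Of the 375 values, 2 fell short of 2-fold and 2 newly passed it. Another 23, all of genes not called, moved by more than the half-width of their counting interval. No called gene changed sign, and changes of sign were not counted for genes within 2-fold. Genes under 50 reads carry wide counting intervals, and between-sow error is unknown.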
